A study of Mus musculus with 6 samples.

Results

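Voltage-gated sodium channels were examined as a family of 9 genes, chosen by symbol from the 24062 genes counted in each library. They were the pore-forming alpha subunit genes *Scn1a*, *Scn3a*, *Scn7a*, *Scn8a*, *Scn9a*, *Scn10a* and *Scn11a* and the auxiliary beta subunit genes *Scn2b* and *Scn4b*. All 9 were found in the files and all 9 passed the filter on low counts. A further 3 genes of the family, *Scn2a* (listed as *Scn2a1*), *Scn4a* and *Scn3b*, were kept as a comparison.

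A voltage-gated sodium channel is a single large alpha subunit that opens when the membrane depolarizes and lets sodium in, which starts and carries the action potential. Beta subunits are small single-pass proteins that bind the alpha subunit and change its gating and its placement in the membrane. In the dorsal root ganglion (DRG), sensory neurons use *Scn9a*, *Scn10a* and *Scn11a* for the signals of pain fibers and *Scn8a* at the nodes of Ranvier of myelinated axons. *Scn7a* is the exception of the family, since its product responds to extracellular sodium more than to voltage and is made by nonmyelinating Schwann cells (SCs) and other glia.

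Bulk RNA sequencing (RNA-seq) was available for 6 libraries of C57BL/6-I129 background, 3 of genotype Nf1fl/fl;DhhCre and 3 labelled as double knockout (DKO), in which *Runx1* and *Runx3* were floxed as well. Cre is driven by the *Dhh* promoter, which is active in the SC lineage and not in sensory neurons. The genotype field of the second group reads Rx1flfl;Rx3fl/fl;DhhCre and leaves out Nf1fl/fl, whereas the extraction protocol and the paper list Nf1fl/fl for both. Tissue is recorded as DRG for the first group and as neurofibroma tumor for the second, and the protocol names DRG/tumors for both. In its results the paper instead names tumors for the first group and DRG/tumors for the second. A difference in dissection therefore cannot be told apart from the genotype. The age of the mice for RNA-seq is not given in the sources used here, nor is it stated that each library came from a separate mouse, and p-values measure the spread between these libraries. The question of the comparison was how loss of *Runx1* and *Runx3* changes expression in the *Nf1*-deficient nerve and its tumors.

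Library totals ranged from 12439296 to 16682194 counts. Of the genes the design targets, *Runx3* was lower in all 3 DKO-labelled libraries (10.3 to 13.5 CPM, counts scaled to a common library size) than in the Nf1fl/fl;DhhCre libraries (15.1 to 29.9 CPM) without passing the test (adjusted p = 0.104). *Runx1* was at 84.0 and 78.9 CPM in DKO-labelled replicates 1 and 2 but at 185 CPM in replicate 3, above the 131 to 172 CPM of the Nf1fl/fl;DhhCre libraries. *Nf1*, floxed in both groups, was at 302 ± 30.8 and 290.3 ± 44.5 CPM (SD, n = 3 each). The counts cover each whole gene, including any part outside the deleted exons, and all cells of the tissue, including those without Cre. They cannot show whether the deletion took place in the SC lineage of a library, and this was not tested. The *Runx1* level of replicate 3 was not lower, while its *Runx3* level, 12.1 CPM, lay below all Nf1fl/fl;DhhCre libraries. For this reason "DKO-labelled" is used for these 3 libraries, and member calls are also given without replicate 3. All 13 markers of neurons in general (*Snap25*, *Tubb3*, *Elavl4*, *Isl1*, *Avil* and others) were detected in every library, and none was at 0. Their summed level was 1276 to 2528 CPM in the Nf1fl/fl;DhhCre libraries and 6185 to 13976 CPM in the DKO-labelled ones, and all 13 were called higher.

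Of the 9 sodium channel genes, 6 rose and none fell in the DKO-labelled libraries. *Scn1a*, *Scn8a*, *Scn9a*, *Scn10a*, *Scn11a* and *Scn4b* were 4.53-fold to 7.62-fold higher by the ratio of mean CPM (n = 3 libraries per group). A gene was called when it changed more than 2-fold at an adjusted p below 0.05 in limma-voom, and of the 15652 genes tested 8.03% were called higher and 5.36% lower by this rule. Without Nf1fl/fl;DhhCre replicate 1 the members called fell to 2, *Scn1a* and *Scn8a*, and without replicate 3 of that group to 4. *Scn3a* and *Scn2b* were higher by smaller amounts that did not pass. *Scn7a*, the most abundant member per length, did not pass either, and its values overlapped between the groups. The median log2 fold change of the 9 genes was 2.27, beside 0.02 for all genes tested. The count of members called lower was 0 in limma-voom, 0 at an unadjusted p with the same fold, and 0 in edgeR and in DESeq2. These fits use the same 6 libraries, and 0 of 9 lies near the 5.36% of all genes called lower. In 8 of the 9 genes all 3 DKO-labelled libraries lay above all 3 Nf1fl/fl;DhhCre libraries, a pattern seen in 21.8% of all genes tested. The reverse order, seen in 20.5% of all genes, occurred in 0 of the 9.

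**Figure D1:**
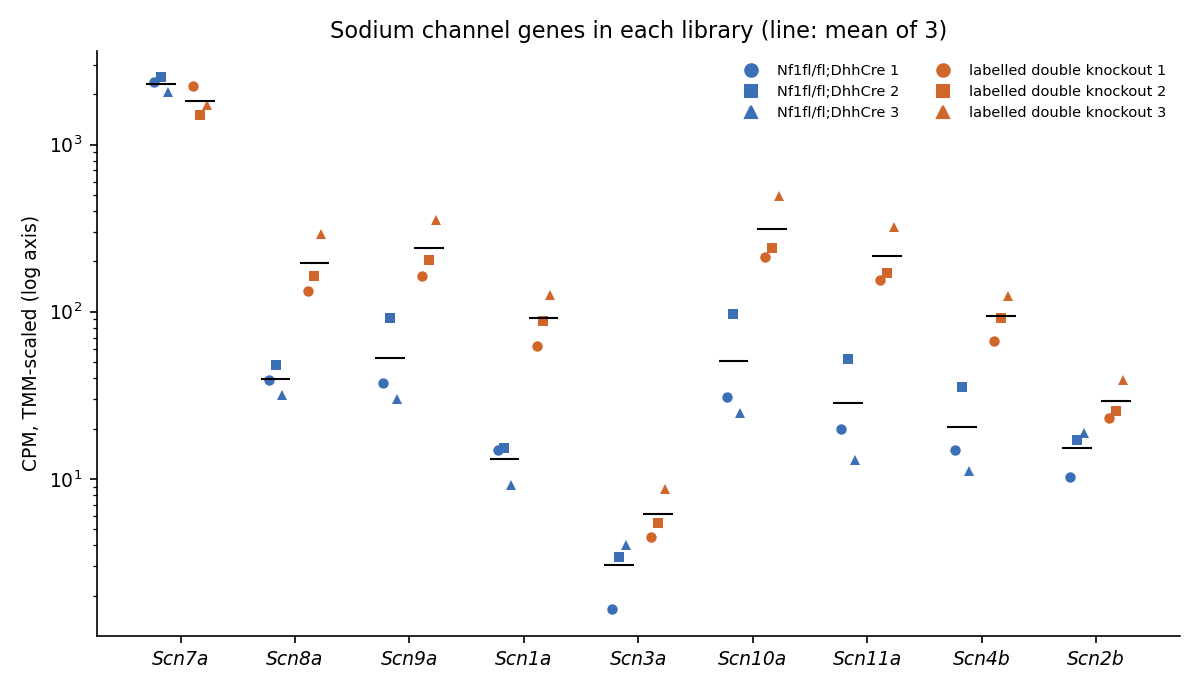
CPM (log axis) of the 9 sodium channel genes in each library, with blue for Nf1fl/fl;DhhCre, orange for DKO-labelled libraries, a marker shape per replicate and a line at the mean of 3. *Scn7a* is at 1504 CPM or more in every library, and 8 genes lie higher in all 3 orange libraries than in all 3 blue ones.

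The members lie in clusters known to have arisen by tandem duplication. On chromosome 2 of GRCm38, *Scn3a*, *Scn2a*, *Scn1a*, *Scn9a* and *Scn7a* share a stretch of 1328 kb, and *Scn9a* (66480080 to 66634962) and *Scn7a* (66673425 to 66784914) are neighbors on the minus strand with 38.5 kb between them. On chromosome 9, *Scn10a* (119608456 to 119719322) and *Scn11a* (119753759 to 119825456) lie 34.4 kb apart, both on the minus strand. *Scn2b* (45117782 to 45130070) and *Scn4b* (45138395 to 45154152) are neighbors on the plus strand of the same chromosome, 8.32 kb apart. *Scn8a* is alone on chromosome 15 (100869858 to 101045938, plus strand). The closest neighbors did not always change together. *Scn9a* was called higher and *Scn7a* was not, and *Scn4b* was called higher and *Scn2b* was not, although these differences between neighbors were not tested. Reads from similar stretches of these paralogs could be assigned to either gene, since how multiply aligned reads were handled is not stated.

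The promoters of members that rose are shown beside that of *Scn7a*, to let the sequences of unlike responders be compared. RefSeq windows (GRCm38.p6) were available for 8 of the 9 members, and *Scn3a* is named only. The bases from 250 to 51 before the RefSeq start are printed 5′ to 3′ for the 5 members with a stretch that touches no annotated exon, on the plus strand for *Scn8a* and the minus strand for the others. *Scn8a* has 2 such stretches, of which the one with the motif is shown. Capitals mark TGTGG, a core sequence bound by RUNX proteins, read on either strand (as CCACA on the opposite one).
*Scn1a*, chr2:66440888-66441087: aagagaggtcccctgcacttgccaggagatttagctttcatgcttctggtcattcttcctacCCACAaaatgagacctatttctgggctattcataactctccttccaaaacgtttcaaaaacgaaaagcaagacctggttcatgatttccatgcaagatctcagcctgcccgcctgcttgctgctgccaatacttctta
*Scn9a*, chr2:66635013-66635212: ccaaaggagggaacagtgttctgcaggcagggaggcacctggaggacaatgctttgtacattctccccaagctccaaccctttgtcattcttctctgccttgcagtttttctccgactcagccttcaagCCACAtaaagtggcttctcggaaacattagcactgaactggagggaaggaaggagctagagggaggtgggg
*Scn8a*, chr15:100936021-100936220: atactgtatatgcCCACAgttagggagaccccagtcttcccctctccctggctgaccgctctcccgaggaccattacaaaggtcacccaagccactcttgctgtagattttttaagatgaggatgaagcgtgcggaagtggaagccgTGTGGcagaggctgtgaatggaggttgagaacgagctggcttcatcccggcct
*Scn11a*, chr9:119825507-119825706: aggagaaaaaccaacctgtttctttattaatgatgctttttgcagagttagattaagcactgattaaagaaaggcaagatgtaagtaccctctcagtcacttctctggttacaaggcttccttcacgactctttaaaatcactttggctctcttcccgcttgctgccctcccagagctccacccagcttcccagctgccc
*Scn7a*, chr2:66784961-66785160: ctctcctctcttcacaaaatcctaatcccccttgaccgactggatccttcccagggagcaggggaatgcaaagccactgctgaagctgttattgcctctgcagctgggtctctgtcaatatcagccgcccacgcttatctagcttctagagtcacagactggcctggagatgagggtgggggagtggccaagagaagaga

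In these stretches the core occurred at 188 bases before the start in *Scn1a*, at 121 bases before it in *Scn9a* and at 237 and 103 bases before it in *Scn8a*. It did not occur in those of *Scn11a* and *Scn7a* or in the other stretch of *Scn8a*, which says only that these letters are absent there. In the full windows a further copy lay 44 bases after the start of *Scn1a*, one 18 bases before that of *Scn9a*, and one 22 bases after that of *Scn7a*. Of all 32851 promoter windows, 42.6% held the core in the same 200 bases. Over the full 300 bases, 5 of the 9 windows of members (*Scn8a* has 2) held it, beside 55.9% of all windows. The windows of *Scn10a*, *Scn11a* and *Scn4b*, all called higher, did not. That of *Scn2b*, which was not called, held it 102 and 31 bases before the start.

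*Scn10a* and *Scn11a*, which encode the tetrodotoxin-resistant channels of nociceptors, were the most abundant members after *Scn7a* in the DKO-labelled libraries when levels were compared per length. *Scn10a* was at 31.0, 96.7 and 24.6 CPM in Nf1fl/fl;DhhCre replicates 1 to 3 and at 213, 240.04 and 490.3 CPM in the DKO-labelled libraries. *Scn11a* was at 19.98, 52.2 and 12.9 CPM against 155, 170.1 and 323 CPM. In both genes replicate 2 was the high library among Nf1fl/fl;DhhCre and replicate 3 the high one in the other group, and the groups did not overlap. *Scn10a* changed by 2.79 log2 units (SE 0.53, adjusted p = 0.0166) and *Scn11a* by 3.09 (SE 0.50, adjusted p = 0.0124), with 95% intervals from 1.55 to 4.03 and from 1.91 to 4.27. Both calls were lost in limma-voom without Nf1fl/fl;DhhCre replicate 1 (adjusted p = 0.0657 and 0.0561). That of *Scn10a* was also lost without replicate 3 of that group (adjusted p = 0.0523). *Scn11a* had the largest change of the 9 genes and ranked 153 of the 15652 genes tested by log2 fold change, ahead of *Scn10a* at 251 and *Scn1a* at 253.

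*Scn9a*, the channel that amplifies small depolarizations in nociceptors and sympathetic neurons, was at 37.4, 91.7 and 30.2 CPM in the Nf1fl/fl;DhhCre libraries, against 164, 203 and 354 CPM in the DKO-labelled libraries. The lowest DKO-labelled library lay above the highest of the other group. *Scn9a* changed by 2.27 log2 units (SE 0.45, adjusted p = 0.0179). This call was lost in limma-voom without Nf1fl/fl;DhhCre replicate 1 or 3 (adjusted p = 0.0689 and 0.0552). An annotated antisense gene, *Gm13629*, crosses 23 *Scn9a* exon records and was counted separately at 4 to 35 reads per library, beside 471 to 5367 reads for *Scn9a*. Strandedness is not stated, and reads from this overlap cannot be told apart.

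*Scn8a*, the main channel of the mature node of Ranvier, and *Scn1a*, a channel of large-diameter sensory and many central neurons, rose with less spread among the Nf1fl/fl;DhhCre libraries. *Scn8a* was at 39.0, 48.0 and 31.9 CPM against 133, 164 and 292 CPM and changed by 2.25 log2 units (SE 0.32, adjusted p = 0.0100). *Scn1a* was at 14.98, 15.3 and 9.24 CPM against 62.6, 87.5 and 126 CPM and changed by 2.79 (SE 0.34, adjusted p = 0.00805). For neither gene did the groups overlap. These were the members whose call held whichever of the 6 libraries was left out, with changes from 1.92 to 2.53 for *Scn8a* and from 2.53 to 3.08 for *Scn1a*.

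*Scn3a*, an alpha subunit mainly of embryonic neurons that adult DRG keeps at low levels, had 24, 57 and 63 reads in the Nf1fl/fl;DhhCre libraries and 56, 66 and 131 in the DKO-labelled libraries, or 1.66, 3.40 and 4.04 against 4.46, 5.43 and 8.65 CPM. The groups did not overlap, but the highest Nf1fl/fl;DhhCre library and the lowest of the others were close. *Scn3a* changed by 1.07 log2 units (SE 0.43, adjusted p = 0.127), and the 95% interval from 0.05 to 2.08 runs from almost no difference to nearly the size seen for *Scn8a*.

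*Scn7a* was at 2370.4, 2523 and 2055 CPM in Nf1fl/fl;DhhCre and at 2229, 1504 and 1734 CPM in the DKO-labelled libraries. DKO-labelled replicate 1 lay inside the range of the first group, and the other two lay below it. The change was -0.36 log2 units (SE 0.17, adjusted p = 0.167), and its 95% interval from -0.75 to 0.03 lay below the intervals of all 6 members called. Of 6 general SC markers, 1 was called, *S100b*, which was higher at 121 ± 8.53 against 347 ± 44.2 CPM (SD, n = 3 each, log2 fold change 1.52, adjusted p = 0.00598). *Foxd3* was lower without overlap but did not pass (-0.60, adjusted p = 0.0985), and *Sox10* was at 221 ± 23.5 and 237 ± 31.7 CPM. The mean of the 6 differed by 0.12 on the log2 scale, and by -0.16 without *S100b*. Of 5 markers of nonmyelinating SCs, 1 was called lower (*Gfap*, log2 fold change -1.94) and 1 higher (*Ngfr*, 1.36). *Ncam1* was lower without overlap but did not pass (-0.62, adjusted p = 0.0522), and *L1cam* and *Cadm2* overlapped. The summed level of the 5 markers was 1299.6 to 1329 CPM against 1187 to 1918 CPM. Their part in the level of *Scn7a* was not tested. Set against the mean of the 6 general SC markers, *Scn7a* was at 4.003, 4.16 and 3.90 log2 units in Nf1fl/fl;DhhCre and at 3.64, 3.51 and 3.47 in the DKO-labelled libraries, without overlap. The difference of -0.48 was -0.20 without *S100b*, an alternative chosen after seeing the data, still without overlap. With 3 libraries against 3 the smallest two-sided p of an exact permutation test is 0.1, and no test was made of this ratio.

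Of the beta subunit genes among the members, *Scn4b* was called and *Scn2b* was not. *Scn4b*, whose product can supply the blocking particle behind resurgent sodium current, was at 14.98, 35.4 and 11.1 CPM in Nf1fl/fl;DhhCre and at 67.1, 91.9 and 124 CPM in the DKO-labelled libraries. It changed by 2.33 log2 units (SE 0.42, adjusted p = 0.0147). This call was lost in limma-voom without Nf1fl/fl;DhhCre replicate 1 (adjusted p = 0.0626). *Scn2b*, which binds alpha subunits through a disulfide bond and raises their number at the surface, was at 10.2, 17.2 and 18.7 CPM against 23.2, 25.6 and 39.1 CPM, again without overlap. Its change of 0.94 (SE 0.30, adjusted p = 0.0674, 95% interval 0.24 to 1.65) was short of both thresholds. With sample quality weights it was the seventh member called, at 1.05 (adjusted p = 0.0366). DESeq2 gave an adjusted p of 0.0238 but a change of 0.92, under 2-fold, and in the other fits with all 6 libraries the adjusted p was 0.0667 to 0.0757. *Gm10684* overlaps *Scn2b* on the opposite strand and had 1 to 14 reads per library, beside 147 to 593 for *Scn2b*.

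**Figure D2:**
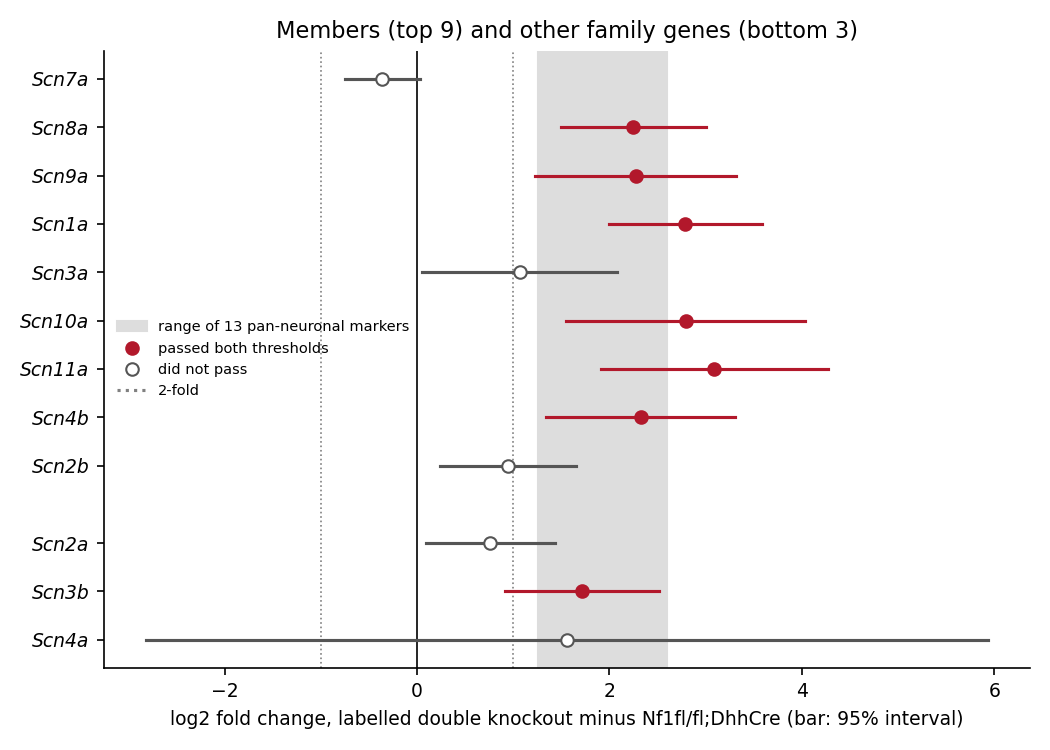
Log2 fold change (x axis, DKO-labelled minus Nf1fl/fl;DhhCre, with 95% intervals from limma-voom) of the 9 members and the 3 other family genes. Filled red points passed both thresholds, the dotted lines mark 2-fold, and the grey band, from 1.26 to 2.60, spans the 13 neuronal markers; *Scn7a* has the only estimate below 0.

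Of the 3 other family genes, 1 was called, beside 13.4% of all genes tested called in either direction. *Scn3b*, a beta subunit gene of small-diameter sensory neurons, was at 15.7, 30.7 and 16.2 CPM against 47.1, 63.7 and 92.5 CPM (log2 fold change 1.71, SE 0.34, adjusted p = 0.0188). Its call was lost in limma-voom without Nf1fl/fl;DhhCre replicate 1 or 3 or DKO-labelled replicate 2 (adjusted p = 0.0701, 0.0612 and 0.0522). *Scn2a*, mainly a channel of central neurons, was at 13.6 to 15.7 CPM against 16.9 to 35.5 CPM (0.76, SE 0.29, adjusted p = 0.104). *Scn4a*, the channel of skeletal muscle, was high in 1 library of each group (1.56, SE 1.87, adjusted p = 0.592). It was at 12.2 CPM in Nf1fl/fl;DhhCre replicate 2 and 40.7 CPM in DKO-labelled replicate 2, and between 0.192 and 1.65 CPM in the other 4 libraries. In the same pair of libraries the summed level of 7 skeletal muscle markers was 2159 and 11189 CPM, beside 5.52 to 63.0 CPM elsewhere, and the part of muscle in the level of *Scn4a* was not tested. The 6 members called were all highest in DKO-labelled replicate 3.

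Because sensory neurons carry most of these channels, each member was also expressed relative to the mean log2 CPM of the 13 neuronal markers in the same library. In bulk tissue, more neurons in the piece and more RNA per neuron cannot be told apart. The mean of the markers was 5.11, 6.10 and 4.94 in Nf1fl/fl;DhhCre and 7.17, 7.44 and 8.31 in the DKO-labelled libraries, a difference of 2.26 between the group means. Within the DKO-labelled group, replicate 3 was above 2 and 2 above 1 for all 13 markers, for the 6 members called and for *Scn3a* and *Scn2b*, but not for *Scn7a*. Among the Nf1fl/fl;DhhCre libraries, replicate 2 was the highest for all 13 markers and for the 6 members called. *Scn3a* and *Scn2b* were instead highest there in replicate 3, where the marker mean was lowest. Markers of other cells also differed. Of 7 genes of myelinating SCs 6 were called higher (summed level 627 to 716 CPM against 1411 to 1845 CPM), while 4 of 5 fibroblast genes (7789 to 8562 against 2825 to 4561 CPM) and 4 of 5 macrophage genes (367 to 798 against 78.1 to 178 CPM) were called lower. The part of neuronal or other cell content in the levels of the channels was not tested.

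Relative to the neuronal markers, the members fell into distinct patterns. *Scn9a* was at 0.12, 0.42 and -0.02 log2 units in Nf1fl/fl;DhhCre and at 0.19, 0.23 and 0.16 in the DKO-labelled libraries, so that the group means differed by 0.02. *Scn8a* (difference -0.02) and *Scn4b* (0.08) were likewise within the spread of the libraries. *Scn10a* (0.54) and *Scn1a* (0.52) were higher on average, but their groups overlapped (relative to 7 nociceptor markers those of *Scn1a* did not, with a difference of 0.63). *Scn11a* was at -0.78, -0.40 and -1.25 against 0.11, -0.03 and 0.02, a difference of 0.84 with no overlap. *Scn3a* and *Scn2b* moved the other way, by -1.20 and -1.32, with all 3 DKO-labelled libraries below all 3 of the others. *Scn7a* differed by -2.62. Among the other family genes *Scn3b* (-0.54) and *Scn2a* (-1.51) also lay lower without overlap. The rise of *Scn3b* was thus smaller than the mean rise of the markers, although inside their range of 1.26 to 2.60. These values are descriptions with n = 3 per group, and no p-value was computed for them.

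**Figure D3:**
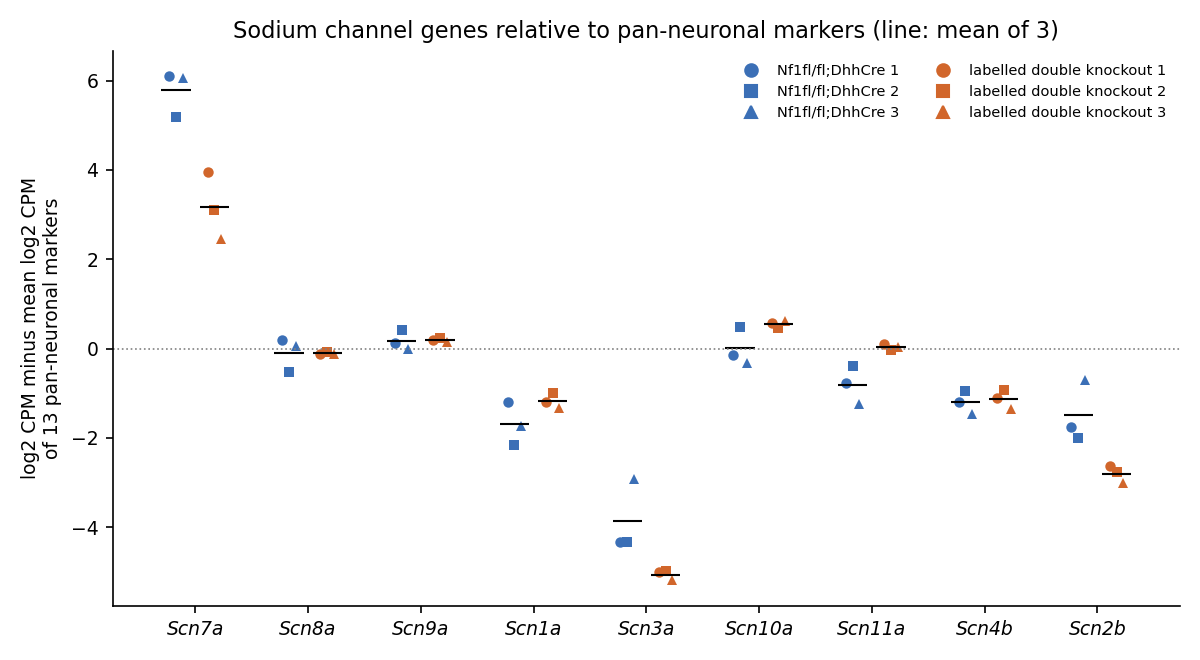
Log2 CPM of each member minus the mean log2 CPM of 13 neuronal markers in the same library (y axis), with blue for Nf1fl/fl;DhhCre, orange for DKO-labelled libraries and a line at the mean of 3. *Scn8a*, *Scn9a* and *Scn4b* overlap between the groups, *Scn11a* is higher in orange, and *Scn3a*, *Scn2b* and *Scn7a* are lower.

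For the 6 members called, the SD of the relative level was 0.02 to 0.22 in that group and 0.22 to 0.49 in the Nf1fl/fl;DhhCre libraries (n = 3 each). The tightest was *Scn8a*, at -0.11, -0.09 and -0.12 in the DKO-labelled libraries, although its CPM there ranged from 133 to 292.

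Levels of different members were compared per length, as CPM divided by the length of the merged exons in kb. In the Nf1fl/fl;DhhCre libraries *Scn7a* was at 316 ± 32.5 CPM per kb (SD, n = 3), far above the next, *Scn10a*, at 6.37 ± 5.01. From *Scn10a* through *Scn11a*, *Scn9a*, *Scn4b* and *Scn2b* to *Scn8a* (2.51 ± 0.51) the libraries of neighbors in the order overlapped. *Scn1a* (1.18 ± 0.305) and *Scn3a* (0.244 ± 0.0986) were each apart from the gene above. In the DKO-labelled libraries *Scn7a* was still first at 248 ± 50.5 CPM per kb. *Scn10a* (39.5 ± 19.2) and *Scn11a* (36.4 ± 15.7) followed and overlapped with each other, with *Scn10a* the higher in all 3 libraries, and the highest *Scn9a* library (27.7) reached into the range of both. *Scn4b*, *Scn9a*, *Scn8a*, *Scn1a* and *Scn2b* came next, each overlapping its neighbor, and *Scn3a* was last and apart at 0.496 ± 0.176.

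Summed per kb over the 9 alpha genes analysed here, *Scn7a* made up 95.4%, 90.6% and 95.9% of alpha transcript in Nf1fl/fl;DhhCre and 78.8%, 66.9% and 57.1% in the DKO-labelled libraries. The groups did not overlap. The sum of the other 8 was 11.9 to 35.8 CPM per kb in the first group and 81.7 to 177 in the second. With *Scn7a* set aside, the mix of the remaining 8 was closer between the groups. *Scn10a* made up 25.2%, 33.9% and 26.0% against 32.7%, 29.8% and 34.7%, and *Scn11a* 21.8%, 24.6% and 18.3% against 32.04%, 28.3% and 30.7%. The share of *Scn11a* was higher without overlap, that of *Scn10a* overlapped. *Scn4a*, the muscle channel, took 4.85% in Nf1fl/fl;DhhCre replicate 2 and 5.71% in DKO-labelled replicate 2, and 0.132% to 0.829% elsewhere. Its part lowers the other shares in the replicates 2. *Scn9a* took 18.9% to 20.1% in the first group and 15.6% to 15.7% in the second. *Scn2a* took 3.44% to 8.97% and 1.57% to 1.97%, although its CPM was higher in the second group. Shares sum to a whole, and a smaller share does not show less transcript. Among the 3 beta genes analysed here, *Scn4b* made up 37.2%, 43.3% and 24.2% in Nf1fl/fl;DhhCre and 49.7%, 51.8% and 49.4% in the DKO-labelled libraries. *Scn2b* went the other way, from 22.4% to 43.7% in the first group to 15.4% to 18.4% in the second.

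**Figure D4:**
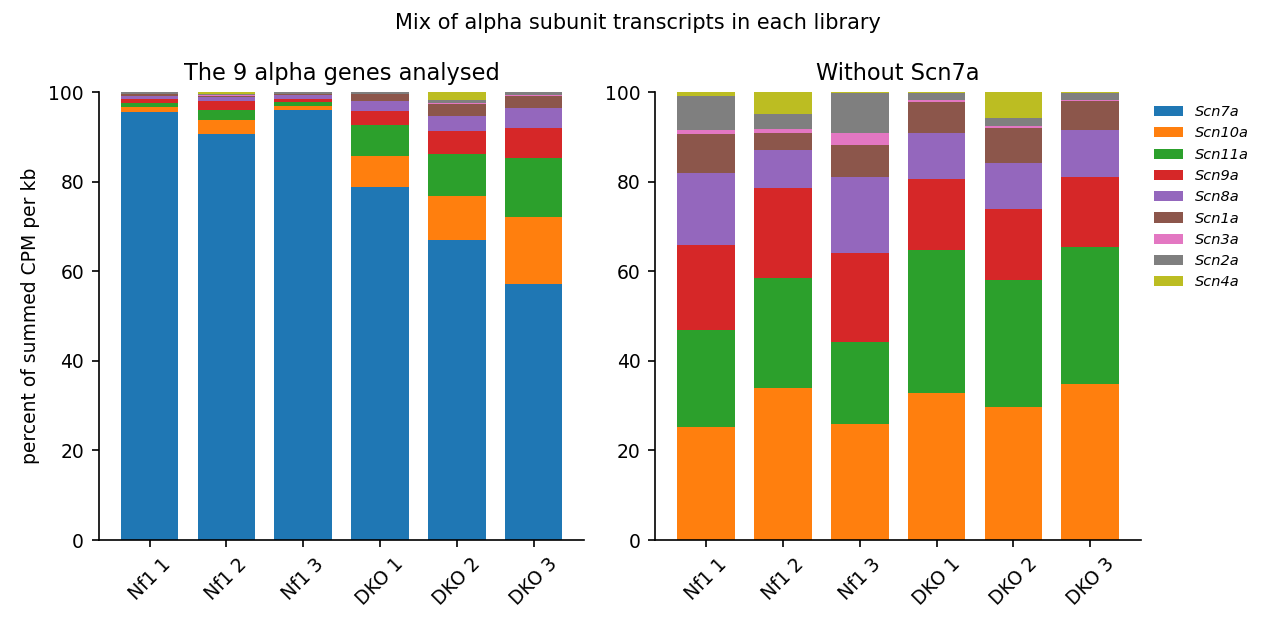
Share of each alpha subunit gene in the summed CPM per kb (y axis, percent) of the 9 alpha genes analysed (left) and of the 8 without *Scn7a* (right), 1 bar per library, where Nf1 stands for Nf1fl/fl;DhhCre and DKO for DKO-labelled libraries. *Scn7a* takes 90.6% or more in each Nf1fl/fl;DhhCre library and 57.1% to 78.8% in the others, and on the right *Scn10a* and *Scn11a* together take 44.2% to 58.5% and 58.1% to 65.5%.

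Within the libraries, pairs of members kept different degrees of balance. The log2 difference of *Scn8a* minus *Scn9a* was -0.30, -0.31 and -0.28 in the DKO-labelled libraries and 0.06, -0.93 and 0.08 in Nf1fl/fl;DhhCre, where replicate 2 stood apart. *Scn10a* minus *Scn11a* was 0.63, 0.89 and 0.93 in Nf1fl/fl;DhhCre and 0.46, 0.50 and 0.60 in the other group. *Scn4b* minus *Scn2b* was 0.55, 1.05 and -0.75 against 1.53, 1.84 and 1.66 for the beta pair on chromosome 9, without overlap. *Scn9a* minus *Scn7a*, neighbors on chromosome 2, moved from between -6.09 and -4.78 to between -3.76 and -2.29.

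The genes whose pattern over the 6 libraries was most like that of *Scn10a* and *Scn7a* were found by the root mean square difference of centered log2 CPM, among 10222 genes whose average log2 CPM was 3 or more. Nearest to *Scn10a* were *Diras2* (0.084), *Car10* (0.090), *Elavl3* (0.109), *Syt7* (0.112) and *P2rx3* (0.115), the last a purine receptor of nociceptors and *Elavl3* a neuronal RNA-binding protein gene. Their log2 fold changes were 2.57 to 2.81. Nearest to *Scn7a* were *Sirt1* (0.031), *Peg10* (0.040), *Klhl34* (0.060), *Plscr4* (0.062) and *Csgalnact1* (0.065), with changes from -0.45 to -0.33. None of these 5 passed the test. Since the genes near each member were picked by likeness in these same libraries, changes close to its own follow from the choice. The measure describes likeness over 6 libraries that share 2 genotypes and says nothing of shared function.

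Of 13 genes whose products bind, anchor or modify sodium channels, 6 were called higher, 0 lower, and 7 did not pass. Over all genes tested, 8.03% were called higher and 5.36% lower. The fibroblast growth factor homologous factors, which bind the tail of the alpha subunit and set its inactivation, split by gene. *Fgf12* rose from 18.7, 34.9 and 11.9 CPM to 97.0, 129 and 221 CPM (log2 fold change 2.82, SE 0.45, adjusted p = 0.0116) and *Fgf13* from 24.8, 53.2 and 31.2 to 107, 130.3 and 241 CPM (2.11, SE 0.38). *Fgf11* and *Fgf14* did not pass, at 0.01 (SE 0.18) and -0.39 (SE 0.37), and *Fgf11* changes sign with scaling by library size only. Among the genes of proteins that hold channels at nodes and axon initial segments, *Nfasc* (1.69, SE 0.23), *Cntn1* (2.26, SE 0.41) and *Sptbn4* (1.96, SE 0.50) rose. *Nrcam* was higher without overlap but under 2-fold, and so was not called (0.83, SE 0.18, adjusted p = 0.0231). The call of *Sptbn4*, which had 13 to 101 reads, held in 2 of the 6 fits without 1 library and was lost without Nf1fl/fl;DhhCre replicate 1 or 3 or DKO-labelled replicate 2 or 3 (adjusted p up to 0.114). *Ank3*, the ankyrin G gene that many cell types express, was at 665 to 709 CPM against 763 to 973 CPM and did not pass (0.38, SE 0.12, adjusted p = 0.0737). *Nedd4l*, a ubiquitin ligase that removes channels from the membrane, was called at 1.02 (SE 0.22), close to the 2-fold limit, and was not called when scaled by library size only (0.94) or with quality weights (0.97). It was called in 2 of the 6 fits without 1 library. Without Nf1fl/fl;DhhCre replicate 1, *Nfasc* alone of the 6 stayed called.

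Of 9 genes for other routes of sodium, 3 were called higher and 0 lower, beside 8.03% and 5.36% of all genes tested. The other 6 did not pass. *Atp1b1*, the gene of a beta subunit of the sodium pump, which restores the gradient that the channels spend, was at 98.3, 207 and 99.1 CPM against 407, 581 and 903 CPM (log2 fold change 2.24, SE 0.37, adjusted p = 0.0128). *Nalcn*, the sodium leak channel, was at 21.0 to 43.0 CPM against 24.3 to 42.4 CPM (0.12, SE 0.31), with groups that overlapped throughout. The genes for its auxiliary subunits were both called, *Unc80* at 2.66 (SE 0.33) and *Unc79* at 2.33 (SE 0.38). Without Nf1fl/fl;DhhCre replicate 1, *Unc80* alone of the 3 stayed called.

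The calls were repeated without each library. Without DKO-labelled replicate 3, the one with high *Runx1*, all 6 members stayed called, as they did without replicate 1 or 2 of that group and without Nf1fl/fl;DhhCre replicate 2. Without Nf1fl/fl;DhhCre replicate 1 only *Scn1a* and *Scn8a* passed, and without replicate 3 *Scn1a*, *Scn8a*, *Scn11a* and *Scn4b*. In these fits the log2 fold changes of the 6 members stayed between 1.92 and 3.73. For 4 libraries, replicates 1 and 2 of Nf1fl/fl;DhhCre and replicates 2 and 3 of the DKO-labelled group, the title and the deposited file carry different sample numbers with the prefix of the same group. The grouping is the same by either, and replicate numbers here follow the order of the records. The labels place 1 DKO-labelled library in a second sequencing run, which by these numbers is replicate 2 or 3, and each was left out above.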

How the data were processed

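RNA from DRG/tumors was amplified with the Ovation RNA-Seq System v2 and made into Nextera XT libraries. Per the paper's methods, paired-end reads were aligned to mm10 with TopHat and assigned to genes with featureCounts. The deposited counts are whole reads per gene symbol, not normalized by the authors. The annotation, the strand setting and the handling of multiply aligned reads are not given in the sources used here.

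Scaling, test and thresholds followed the paper's methods, which state no filter on low counts. Here genes were kept with edgeR 4.0.16 filterByExpr (minimum count 10, total 15), scaled by trimmed mean of M values (TMM), fitted with limma-voom (limma 3.58.1, R 4.3.3) with genotype only, and adjusted over all 15652 genes by the Benjamini-Hochberg method. Every adjusted p is from this fit unless another is named. CPM were computed with the TMM factors (0.950 to 1.04), and log2 CPM with a prior count of 0.5. A share of 3 counts per library equals 0.179 to 0.247 CPM, which bounds counting error only. Libraries of a group differed by a chi-square of at least 19.4 per degree of freedom, so none was a copy. Exon lengths and positions came from GENCODE M21 (GRCm38) and promoters from RefSeq. Named were the 9 members, the other family genes, the called genes of the fixed lists (others of these lists and markers, chosen after their values were seen) and the 5 nearest genes to *Scn7a* and *Scn10a*. The members and lists were chosen with earlier results of these data known. Alternatives tried were DESeq2 1.42.0, the quasi-likelihood test of edgeR, other scalings, filters and weights, and leaving out each library. Some genes planned for the comparison lists are not reported here, and the counts and shares leave them out.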

Additional observations from a re-analysis of the deposited data

How the results depend on the processing

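The number of sodium channel members called was 6 or 7 over the 9 other settings with all 6 libraries and 2 to 6 without 1 library, lowest without Nf1fl/fl;DhhCre replicate 1. Over all genes, 2096 were called, and 362 (without Nf1fl/fl;DhhCre replicate 1) to 2285 without 1 library, with 1033 without Nf1fl/fl;DhhCre replicate 3 and 1018 without DKO-labelled replicate 2. DESeq2 called 2907. Scaling by library size only moved the calls from 1257 higher and 839 lower to 1153 and 962. Of the 3 other family genes, 1 was called under every setting with all 6 libraries and 0 to 2 without 1 library: *Scn3b* was lost without Nf1fl/fl;DhhCre replicate 1 or 3 or DKO-labelled replicate 2, and *Scn2a* was added without DKO-labelled replicate 1. Partner genes called ranged from 1 to 6 and pump and leak channel genes from 1 to 4 without 1 library, both lowest without Nf1fl/fl;DhhCre replicate 1. The cause was not tested. The log2 fold change of no member changed sign under any setting. Small changes that did were *Fgf11* (-0.066 with library size only, -0.083 to 0.16 without 1 library), *Slc8a3* (-0.083 with quality weights, -0.0066 to 0.38 without 1 library) and, without 1 library, *Atp1b2* (-0.092 to 0.017), *Nalcn* (-0.12 to 0.41), *Slc8a2* (-1.31 to 0.64) and *Nf1* (-0.18 to 0.043). Other neuronal marker lists moved no level of a member relative to the markers by more than its spread, although with the nociceptor list the groups of *Scn1a* no longer overlapped. The small relative difference of *Scn8a* changed sign, from -0.02 to 0.02 without neurofilament and peripherin genes and 0.09 with the nociceptor list. Without a filter 2219 genes were called. The longest transcript as length raised *Scn1a* to 1.57 and *Scn8a* to 3.47 CPM per kb in Nf1fl/fl;DhhCre, by more than their SD, and no other member's level in either group by more than its SD. *Scn7a* relative to the general SC markers moved to -0.20 without *S100b*. No paired analysis was possible because the labels number no replicates across the groups.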
